A study of Mus musculus with 12 samples.

Results

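LIN28A, LIN28B, TRIM71, HMGA1, HMGA2 and the 3 IGF2BP proteins form a group of embryonic regulators that most adult tissues silence and many tumours express again. Their 8 genes (Lin28a, Lin28b, Trim71, Hmga1, Hmga2, Igf2bp1, Igf2bp2 and Igf2bp3) were taken by symbol from a table of 54446 mouse genes. They were compared between undifferentiated embryonic stem cells and sorted groups of differentiated cells. All 8 were found, and all 8 were among the 16097 genes that passed the filter on low values. The 12 poly(A) RNA libraries came from E14, a mouse embryonic stem cell line, with 3 libraries in each of 4 groups. The SOX17+, SOX17+/T+ and T+ groups were differentiated E14 cells that had been sorted by reporters for SOX17, an endodermal transcription factor with an HMG box, and T, the Brachyury protein of primitive streak and early mesoderm. The mESC group was undifferentiated E14, for which the labels describe culture with serum and LIF on irradiated mouse embryonic fibroblasts as feeders, and neither a sort nor a feeder removal is stated for it. The sources used here do not give the day or protocol of differentiation. All groups come from 1 line, and the labels do not say whether replicates are separate cultures, so the p-values measure only the spread between these libraries. Levels are TPM, length-scaled transcript abundances that add up to the same total in every library. They carry no depth, which is therefore unknown for each value.

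LIN28A and LIN28B pair a cold-shock domain with zinc knuckles and bind the terminal loop of let-7 precursors, where they block maturation. LIN28A recruits the uridylyl transferases TUT4 and TUT7, which mark the precursor for decay by DIS3L2. The let-7 microRNAs in turn bind the 3′ UTRs of many of the same oncofetal messengers, LIN28 included, so that LIN28 and let-7 repress each other. TRIM71 (LIN41) is a TRIM-NHL protein that binds and silences messengers, HMGA1 and HMGA2 are AT-hook proteins that bend DNA and shape chromatin, and IGF2BP1 to IGF2BP3 are KH-domain proteins that stabilise and localise messengers, Igf2, Myc and m6A-marked RNA among them. Poly(A) libraries do not capture mature let-7. The 12 let-7 and miR-98 hairpin genes in the table reached at most 0.648 TPM in any library, so let-7 itself is not measured here.

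The pairing between let-7 and these messengers can be read from the sequences. Of 9 mature 5p forms of the let-7 and miR-98 family in the RefSeq table (GRCm38.p6), all 9 carry the seed GAGGUAG at bases 2 to 8, shown in capitals in a few members whose other bases differ.
mmu-let-7a-5p: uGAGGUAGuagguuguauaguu
mmu-let-7d-5p: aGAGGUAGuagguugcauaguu
mmu-let-7g-5p: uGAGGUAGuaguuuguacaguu
mmu-miR-98-5p: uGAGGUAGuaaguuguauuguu
The zinc knuckles of LIN28 recognise GGAG near the end of the terminal loop. Of 12 hairpins, 9 held GGAG between the mature arms, and Mirlet7b, Mirlet7c-2 and Mir98 did not. The hairpin of Mirlet7g, with GGAG in capitals, is set against that of Mirlet7b, which lacks it.
Mirlet7g: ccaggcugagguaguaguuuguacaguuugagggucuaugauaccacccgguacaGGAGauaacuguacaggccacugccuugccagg
Mirlet7b: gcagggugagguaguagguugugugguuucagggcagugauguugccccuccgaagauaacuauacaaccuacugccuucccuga

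The 3′ UTR of each of the 8 genes holds a match to the let-7 seed. For every gene it was taken from the GENCODE M21 protein-coding transcript with the longest 3′ UTR, on GRCm38. Whether that transcript is the one expressed here was not tested. Searched on the transcript strand for CTACCTC or TACCTCA, with an overlapping pair counted as 1 match, the UTRs held 7 matches in Hmga2, 6 in Trim71, 5 each in Lin28b and Igf2bp1, 2 each in Lin28a and Igf2bp2, and 1 each in Hmga1 and Igf2bp3. Of 12460 tested protein-coding genes with a 3′ UTR, 16.8% had a match and 17 genes, or 0.136%, had 5 or more. UTR length differs widely, and among genes with a UTR within 20% of its own length, 0.196% had as many matches as Hmga2, 0.549% as many as Trim71 and 23.9% as many as Igf2bp3. Several of these genes are known as let-7 targets, so the matches describe them and test nothing. A match is a stretch of letters and not a measured binding site. For each gene, 25 bases are shown with the match in capitals, choosing the match nearest the stop codon that reads CTACCTCA; in Hmga1 no match has the final A.
Lin28a, chr4:134005189-134005213, minus strand: gtgcacagcctgttgaaCTACCTCA
Lin28b, chr10:45381022-45381046, minus strand: tcacccgggcgggaagtCTACCTCA
Trim71, chr9:114512472-114512496, minus strand: acaacattgcctaagtcCTACCTCA
Hmga1, chr17:27563275-27563299, plus strand: tctcctctgttcacaaaCTACCTCt
Hmga2, chr10:120364224-120364248, minus strand: gcgccgacattcaatttCTACCTCA
Igf2bp1, chr11:95961778-95961802, minus strand: gtgctgtgcgaagtaaaCTACCTCA
Igf2bp2, chr16:22059473-22059497, minus strand: aaacacacaaataaaagCTACCTCA
Igf2bp3, chr6:49086787-49086811, minus strand: cgtgcatttttactcaaCTACCTCA
A match to the seed of miR-125, CTCAGGG, the mammalian relative of the worm lin-4 RNA, stood in the UTRs of Lin28a, Lin28b, Trim71 and Igf2bp3, which is 4 of 8, and in 15.3% of the 12460 genes. That share was not matched for UTR length. These 4 UTRs have 2775, 4445, 5512 and 2119 bases, beside a median of 1159 for the 12460 genes.

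The sort labels matched the RNA. Sox17 lay at 211 to 244 TPM in SOX17+ libraries, 123 to 148 TPM in SOX17+/T+, 7.96 to 12.9 TPM in T+ and 0.484 to 0.798 TPM in mESC. T lay at 1.86 to 2.84, 31.7 to 61.5, 92.1 to 158 and 0.618 to 0.673 TPM in SOX17+, SOX17+/T+, T+ and mESC libraries. Markers of other cells were also measured. The summed level of 15 feeder fibroblast markers was 67.3 to 70.8 TPM in SOX17+, 77.4 to 88.6 TPM in SOX17+/T+, 114 to 130 TPM in T+ and 2969 to 3690 TPM in mESC libraries, with all 15 lower in each sorted group than in mESC. In SOX17+ libraries, 7 primitive blood markers summed to 92 to 229 TPM and 7 visceral endoderm markers to 106 to 120 TPM, against 2.1 to 3.33 and 1.69 to 3.1 TPM in T+ libraries. The 6 endothelial markers summed to 54.1 to 66 TPM in SOX17+, 36.3 to 38 TPM in SOX17+/T+, 29.7 to 33.4 TPM in T+ and 35.5 to 36.1 TPM in mESC. Libraries of a group correlated with each other at r = 0.995 to 0.997 across genes.

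**Figure D1:**
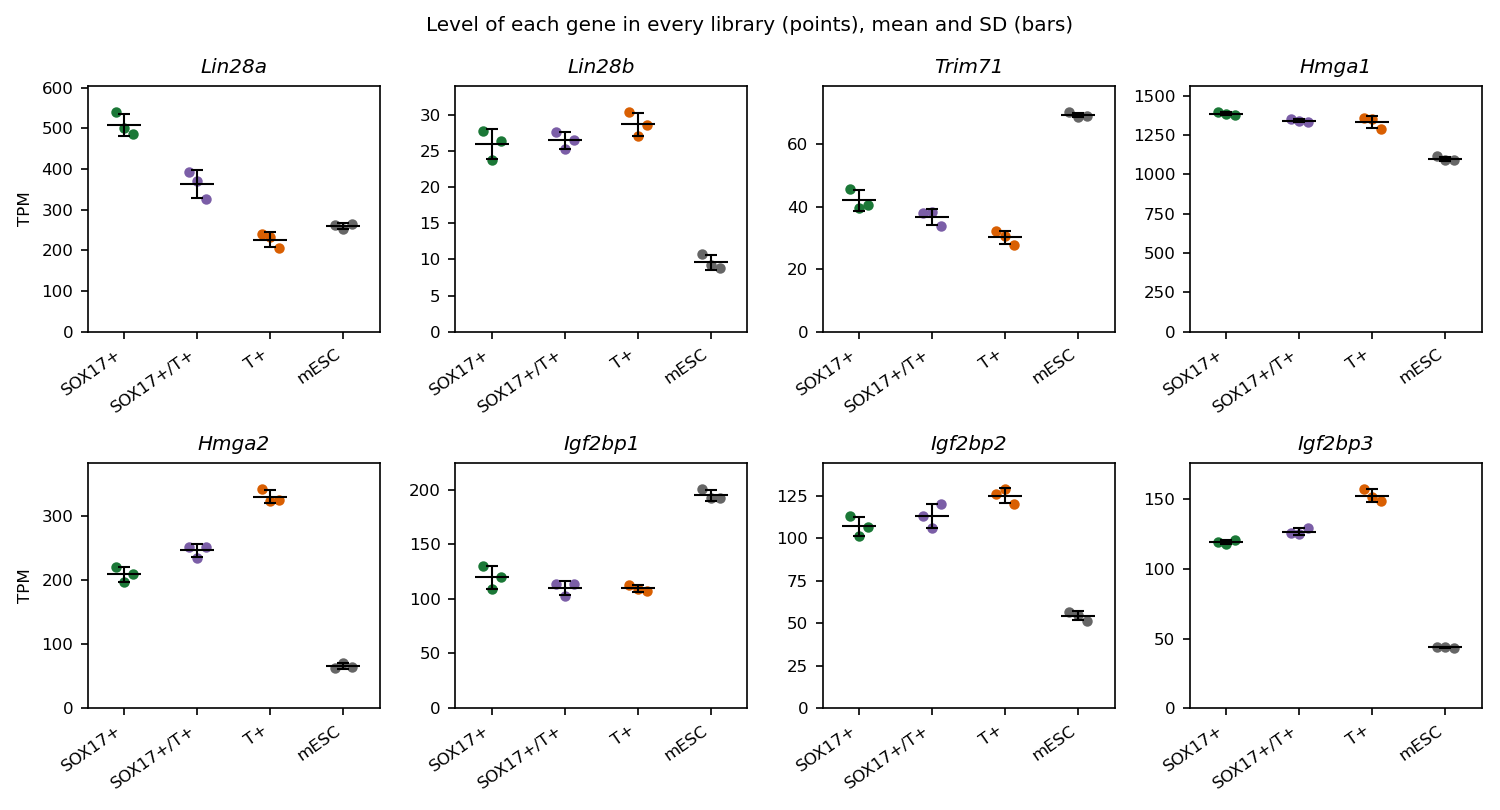
Level in TPM (vertical axis, from 0, a scale for each gene) of the 8 genes in every library of the SOX17+, SOX17+/T+, T+ and mESC groups; points are libraries and bars show the mean and SD of 3. Lin28a is higher in SOX17+ than in T+ (means 509 and 227 TPM), and Hmga2 is lower in SOX17+ than in T+ (209 and 330 TPM). Lin28b, Hmga1, Hmga2, Igf2bp2 and Igf2bp3 all lie lowest in mESC.

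Against mESC, the family split into genes that were higher and genes that were lower in differentiated cells. Calls required an adjusted p under 0.05 (limma on log2(TPM + 1), Benjamini-Hochberg over 16097 genes), and fold changes on this scale understate those of low genes. All 8 were called in SOX17+ against mESC, as were 85.4% of all tested genes, so a call alone says little. By direction, 6 were higher and 2 lower, against 35.4% and 50% of all genes. In SOX17+/T+ against mESC, 6 were higher and 2 lower, where 85.2% of all genes were called, 34.9% higher and 50.3% lower. In T+ against mESC, 5 were higher and 3 lower, where 84% of all genes were called, 34.5% higher and 49.5% lower. A call with a change of at least 2-fold was made for 3, 4 and 5 of the 8 in SOX17+, SOX17+/T+ and T+, against 31.5%, 30.3% and 30.6% of all genes. The count depends on the scaling, with 5, 4 and 5 of the 8 after median-of-ratios rescaling and 5, 4 and 4 after quantile normalization. The median gene itself sat below mESC, at log2 differences of -0.18, -0.19 and -0.17 in SOX17+, SOX17+/T+ and T+, and at 0.05, 0.06 and 0.07 after quantile normalization. With that scaling, 52.4%, 53.2% and 53.4% of the called genes were higher, in place of 41.5%, 40.9% and 41%. Among the 8 genes the direction against mESC was the same under both scalings, except for Lin28a in T+.

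**Figure D2:**
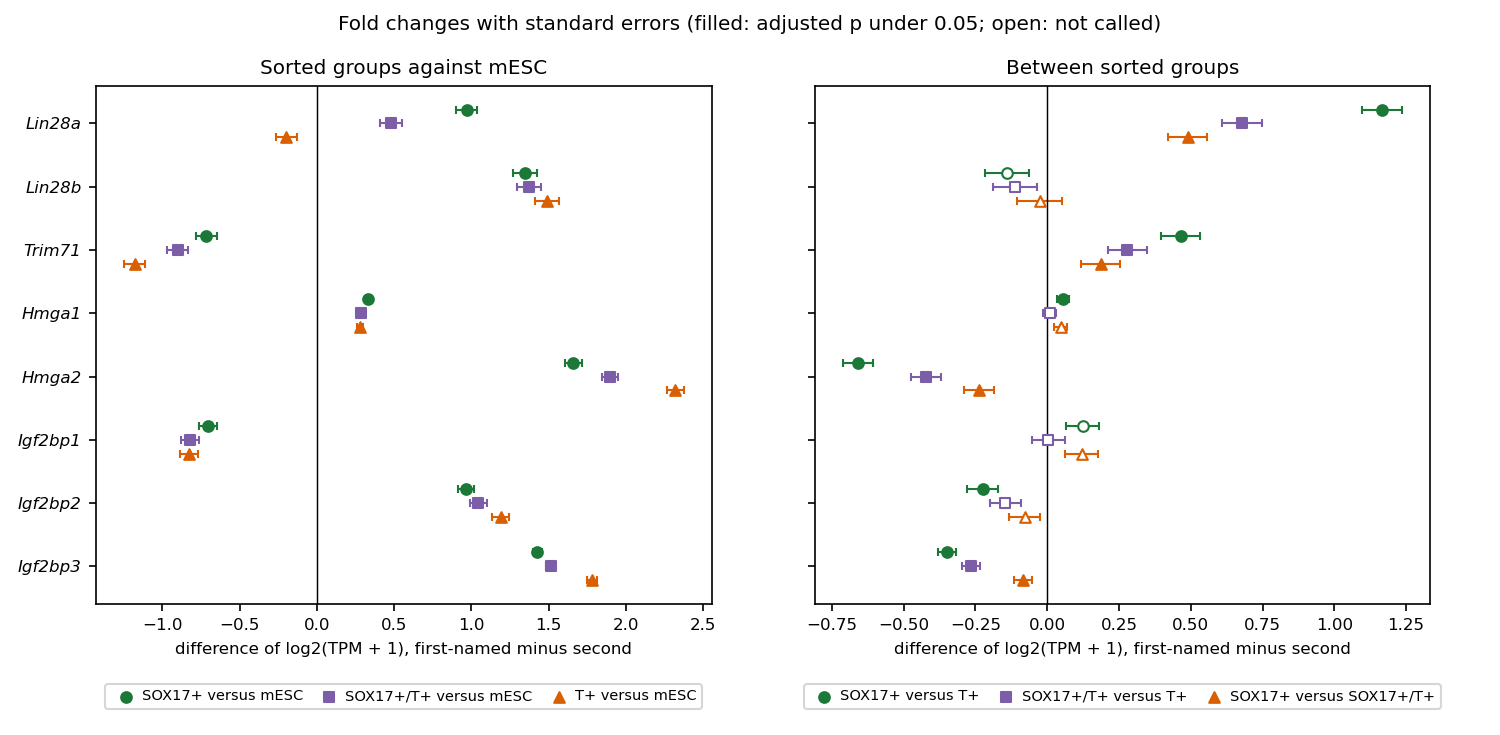
Difference of log2(TPM + 1) between groups (horizontal axis, first-named minus second) with its standard error for each of the 8 genes; filled symbols passed an adjusted p under 0.05 and open symbols did not. On the left, Hmga2, Igf2bp3, Lin28b, Igf2bp2 and Hmga1 lie to the right of 0 in all 3 sorted groups. Trim71 and Igf2bp1 lie to the left in all 3, while Lin28a lies on both sides. On the right, Lin28a and Trim71 are higher in SOX17+ and Hmga2 and Igf2bp3 higher in T+.

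Lin28a, the paralog that maintains the embryonic stem cell translational programme and blocks let-7 in the cytoplasm, was highest in the SOX17+ group. It had 540, 501 and 487 TPM in SOX17+ libraries, 392, 372 and 327 TPM in SOX17+/T+, 241, 232 and 207 TPM in T+, and 264, 251 and 264 TPM in mESC. The SOX17+, SOX17+/T+ and T+ libraries did not overlap, and every T+ library lay below every mESC library. The log2 difference was 1.17 ± 0.07 (SE, adjusted p = 3.26e-08) in SOX17+ against T+, 0.68 ± 0.07 (1.68e-05) in SOX17+/T+ against T+ and 0.49 ± 0.07 (1.64e-04) in SOX17+ against SOX17+/T+. Against mESC, Lin28a rose by 0.97 ± 0.07 in SOX17+ (adjusted p = 3.87e-08) and by 0.48 ± 0.07 in SOX17+/T+ (3.31e-05). In T+ the difference from mESC was -0.20 ± 0.07 (adjusted p = 0.0188), which is 0.03 below the median gene. This call was lost when libraries were rescaled by median of ratios (-0.07, adjusted p = 0.356), and the value turned to 0.17 (adjusted p = 0.0229) after quantile normalization, so whether T+ cells had more or less Lin28a than mESC depends on the scaling. It was also lost without T+ replicate 3, mESC replicate 1 or mESC replicate 3 (-0.13, -0.19 and -0.19). The summed markers of blood, visceral endoderm and endothelium were also highest in SOX17+. In these lists 6 of 6, 6 of 6 and 4 of 5 tested genes were higher in SOX17+ than in T+. The endothelial gene Kdr was lower, at 18.6 against 27.9 TPM, and Pecam1 was highest in mESC, at 30.3 against 10.2 TPM in SOX17+. The part of these markers in the Lin28a difference was not tested. In SOX17+, SOX17+/T+ and T+ the blood sum averaged 153, 13.9 and 2.78 TPM. The visceral endoderm sum averaged 112, 11.2 and 2.36 TPM, so both sums fell in the same order as Lin28a. A sum of 9 definitive endoderm markers, Sox17 among them, also fell in that order, at 2233, 1643 and 614 TPM. Of these 9 genes, 7 were higher and 1 lower in SOX17+ than in T+. Their part in the Lin28a difference was not tested either. Between the SOX17+ libraries the blood sum ran from 92 to 229 TPM and Lin28a from 487 to 540 TPM. A relation within these 3 libraries was not tested. In bulk RNA, a change in the share of cells that express a gene and a change in RNA per cell cannot be told apart.

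Lin28b, which is nuclear in many cells and more often found in fetal and tumour tissue, followed another pattern. It had 27.8, 23.7 and 26.5 TPM in SOX17+ libraries, 27.6, 25.2 and 26.5 TPM in SOX17+/T+, 30.4, 27.1 and 28.7 TPM in T+, and 10.8, 9.25 and 8.82 TPM in mESC. The sorted groups overlapped one another, and all 9 sorted libraries lay above all mESC libraries. Against mESC, Lin28b rose by 1.35 ± 0.08, 1.37 ± 0.08 and 1.49 ± 0.08 on the log2 scale in SOX17+, SOX17+/T+ and T+ (adjusted p = 1.53e-09, 1.29e-09 and 5.68e-10). Between sorted groups no difference was called, the largest being -0.14 ± 0.08 in SOX17+ against T+ (adjusted p = 0.144). With replicate number as a block in the limma fit, that difference was called (adjusted p = 0.0368).

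Since Lin28a and Lin28b were not parallel, the make-up of the LIN28 pool differed between groups. Lin28b gave 4.86% ± 0.31 of the summed Lin28a and Lin28b TPM in SOX17+, 6.82% ± 0.61 in SOX17+/T+, 11.3% ± 0.86 in T+ and 3.57% ± 0.35 in mESC (SD, n = 3 each). The SOX17+ libraries (4.52% to 5.15%), the SOX17+/T+ libraries (6.36% to 7.51%), the T+ libraries (10.5% to 12.2%) and the mESC libraries (3.24% to 3.94%) did not overlap. Lin28a thus made up most of the pool in all 4 groups, and the pool was largest in SOX17+, at 535 ± 28.3 TPM, against 390 ± 33.9 TPM in SOX17+/T+, 255 ± 18.3 TPM in T+ and 269 ± 7.43 TPM in mESC.

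Trim71, the stem cell TRIM-NHL protein that let-7 represses in worms and mammals, was lower in all sorted groups. It had 45.7, 39.5 and 40.6 TPM in SOX17+ libraries, 38.1, 38.4 and 33.8 TPM in SOX17+/T+, 32, 30.6 and 27.7 TPM in T+, and 70.1, 68.7 and 69.1 TPM in mESC. The 4 groups did not overlap. Against mESC, Trim71 fell by 0.71 ± 0.07 in SOX17+, 0.90 ± 0.07 in SOX17+/T+ and 1.18 ± 0.07 in T+ on the log2 scale (adjusted p = 3.25e-07, 2.93e-08 and 1.68e-09). Among sorted cells it was highest in SOX17+, by 0.47 ± 0.07 over T+ (adjusted p = 6.71e-05), and SOX17+/T+ exceeded T+ by 0.28 ± 0.07 (0.00778). The difference of 0.19 ± 0.07 between SOX17+ and SOX17+/T+ was called narrowly (adjusted p = 0.0479), and it was lost without a filter on low TPM (0.116), after quantile normalization (0.0666), with the compared groups alone (0.0964) and in 8 of 12 fits that left out a library (kept without SOX17+ replicate 2, SOX17+/T+ replicate 2, T+ replicate 1 or T+ replicate 3).

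Hmga1 was the most abundant of the 8. It had 1394, 1387 and 1376 TPM in SOX17+ libraries, 1350, 1342 and 1332 TPM in SOX17+/T+, 1360, 1352 and 1290 TPM in T+, and 1115, 1092 and 1090 TPM in mESC. All sorted libraries lay above all mESC libraries, with log2 rises of 0.33 ± 0.02, 0.29 ± 0.02 and 0.28 ± 0.02 in SOX17+, SOX17+/T+ and T+ (adjusted p = 5.18e-09, 2.65e-08 and 3.57e-08). SOX17+ exceeded T+ by 0.06 ± 0.02 (adjusted p = 0.0447), a call that was lost after quantile normalization (0.01, adjusted p = 0.743), without a filter on low TPM (0.0693), with the compared groups alone (0.105) and in 9 of 12 fits that left out a library (all but those without mESC replicate 1, T+ replicate 1 or T+ replicate 2; 0.03 to 0.07). The level of Hmga1 is uncertain, because the table also lists Hmga1b, whose transcript is 99.8% identical to that of Hmga1 over 1602 bases. Hmga1b was given 721, 694 and 684 TPM in SOX17+ libraries, 703, 689 and 683 TPM in SOX17+/T+, 679, 680 and 643 TPM in T+, and 527, 516 and 520 TPM in mESC, and reads from the copies could be split between them. The sum of both was higher than in mESC by 0.36 ± 0.02, 0.33 ± 0.02 and 0.30 ± 0.02 in SOX17+, SOX17+/T+ and T+ (adjusted p = 2.48e-09, 7.9e-09 and 1.69e-08), close to the row of Hmga1 alone.

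Hmga2, the fetal AT-hook protein whose long 3′ UTR is a standard let-7 target, had the largest fold change of the 8 against mESC. It had 220, 197 and 209 TPM in SOX17+ libraries, 252, 235 and 251 TPM in SOX17+/T+, 342, 324 and 324 TPM in T+, and 61.8, 70.8 and 63.5 TPM in mESC. The 4 groups did not overlap, and T+ was highest. Against mESC it rose by 1.66 ± 0.05, 1.90 ± 0.05 and 2.32 ± 0.05 in SOX17+, SOX17+/T+ and T+ (adjusted p = 3.9e-12, 1.15e-12 and 1.65e-13), and the T+ value was above that of 98% of all tested genes. Between sorted groups the log2 difference was -0.66 ± 0.05 in SOX17+ against T+ (adjusted p = 2.47e-07), -0.42 ± 0.05 in SOX17+/T+ against T+ (5.8e-05) and -0.24 ± 0.05 in SOX17+ against SOX17+/T+ (0.00348). Hmga2 gave 13.1% ± 0.59 of the summed Hmga1 and Hmga2 TPM in SOX17+, 15.5% ± 0.52 in SOX17+/T+, 19.8% ± 0.45 in T+ and 5.62% ± 0.43 in mESC (SD, n = 3 each). With Hmga1b added to the sum, these shares were 9.1% ± 0.39, 10.8% ± 0.37, 14.2% ± 0.36 and 3.88% ± 0.3.

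**Figure D3:**
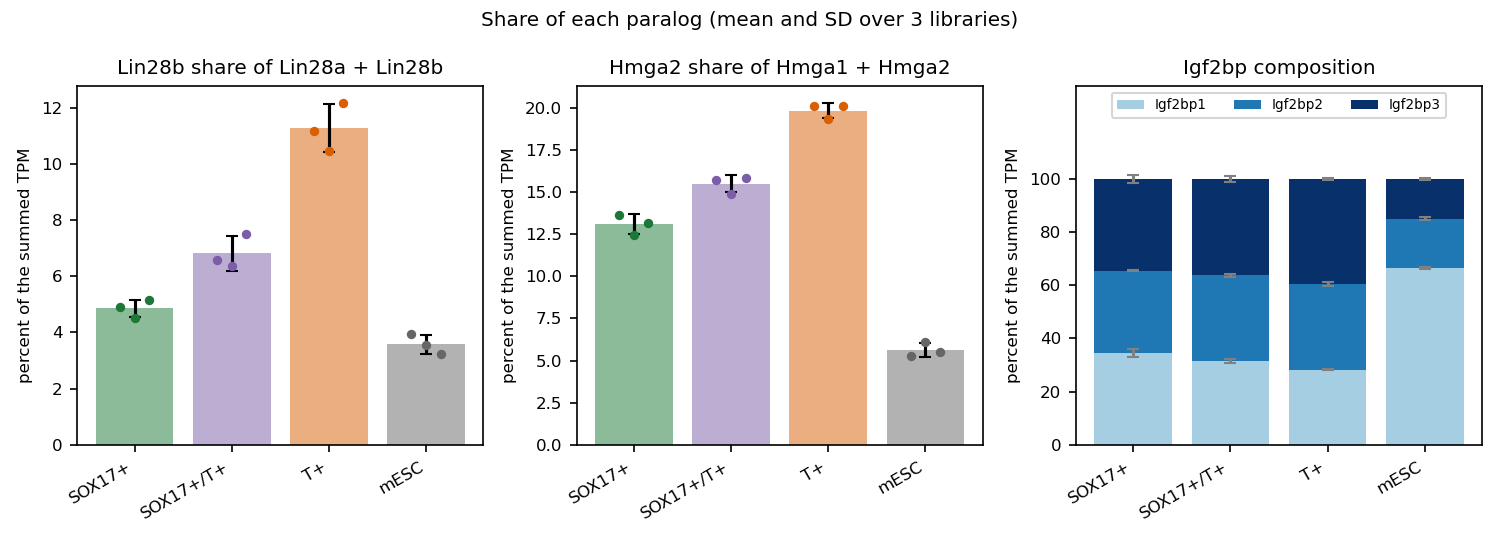
Percent of the summed TPM of paralogs in the SOX17+, SOX17+/T+, T+ and mESC groups (mean and SD of 3 libraries; points in the left and middle panels are libraries). Lin28b and Hmga2 take their largest shares in T+ (11.3% and 19.8%), and the Igf2bp pool is 66.5% Igf2bp1 in mESC and near an even split in the sorted groups; error bars in the right panel stand at the top of each segment and are the SD of that segment.

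The balance of the Igf2bp paralogs differed between differentiated cells and mESC. Igf2bp1, which shields Myc and other messengers from decay, had 130, 109 and 120 TPM in SOX17+ libraries, 114, 103 and 113 TPM in SOX17+/T+, 113, 109 and 107 TPM in T+, and 201, 192 and 192 TPM in mESC. The sorted groups overlapped, and all lay below mESC, by log2 differences of -0.70 ± 0.06, -0.82 ± 0.06 and -0.83 ± 0.06 in SOX17+, SOX17+/T+ and T+ (adjusted p = 6.75e-08, 1.31e-08 and 1.24e-08). No difference between sorted groups was called, the largest being 0.12 ± 0.06 in SOX17+ against T+ (adjusted p = 0.0869). That difference was called after median-of-ratios rescaling (0.15, adjusted p = 0.0144) and without SOX17+ replicate 2 (0.19, adjusted p = 0.00924). It was also called with replicate number as a block in the limma fit (adjusted p = 0.0232). The difference of SOX17+ against SOX17+/T+ was called without SOX17+ replicate 2 (0.18, adjusted p = 0.0161) and with that block (0.12, adjusted p = 0.0366).

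Igf2bp2, the paralog that persists in adult metabolic tissues, had 113, 101 and 107 TPM in SOX17+ libraries, 113, 106 and 120 TPM in SOX17+/T+, 126, 129 and 120 TPM in T+, and 56.8, 54.8 and 51.4 TPM in mESC. Every sorted library lay above every mESC library. It rose against mESC by 0.97 ± 0.05, 1.04 ± 0.05 and 1.19 ± 0.05 in SOX17+, SOX17+/T+ and T+ (adjusted p = 1.29e-09, 5.92e-10 and 1.51e-10). In SOX17+ it was lower than in T+ by -0.22 ± 0.05 (adjusted p = 0.00343), and its other differences between sorted groups were not called. After quantile normalization they were, at -0.14 in SOX17+/T+ against T+ and -0.13 in SOX17+ against SOX17+/T+ (adjusted p = 0.0395 and 0.0471).

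Igf2bp3, a strictly oncofetal paralog, had 120, 118 and 121 TPM in SOX17+ libraries, 126, 125 and 129 TPM in SOX17+/T+, 158, 152 and 148 TPM in T+, and 43.8, 44.1 and 43.4 TPM in mESC. The 4 groups did not overlap and the libraries of a group lay close together. It rose against mESC by 1.43 ± 0.03, 1.51 ± 0.03 and 1.78 ± 0.03 in SOX17+, SOX17+/T+ and T+ (adjusted p = 1.07e-13, 6.57e-14 and 1.5e-14). Between sorted groups it was lower in SOX17+ than in T+ by -0.35 ± 0.03 (adjusted p = 6.97e-07) and lower in SOX17+/T+ than in T+ by -0.27 ± 0.03 (3.5e-05). The difference of -0.09 ± 0.03 in SOX17+ against SOX17+/T+ was called narrowly (adjusted p = 0.0498), and it was lost without a filter on low TPM (0.0557), with the compared groups alone (0.0874) and in 11 of 12 fits that left out a library (all but the fit without T+ replicate 1). The gene Malsu1, on the other strand, overlaps the end of Igf2bp3 and reached 15.8 TPM; the kit was stranded, and the sources used here do not say whether counting used the strand.

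Summed over the 3 paralogs, the IGF2BP pool came to 346 ± 17.2 TPM in SOX17+, 350 ± 14.5 TPM in SOX17+/T+, 387 ± 10.6 TPM in T+ and 293 ± 7.46 TPM in mESC (SD, n = 3 each). Igf2bp1 gave 34.5% ± 1.34, 31.4% ± 0.77, 28.3% ± 0.31 and 66.5% ± 0.48 of it in SOX17+, SOX17+/T+, T+ and mESC. Igf2bp3 gave 34.5% ± 1.48, 36.3% ± 1.02, 39.4% ± 0.42 and 14.9% ± 0.34. The make-up thus differed more between sorted cells and mESC than the pool did. The comparisons with mESC share the mESC libraries, which carried the feeder fibroblast markers given above, and the part of feeder RNA in the level of any of the 8 genes in mESC was not tested. The fold changes between sorted groups are not taken against mESC. The mESC libraries still enter through the estimate of the spread, the rescalings and the filter on low values, which sets the genes tested.

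Between sorted groups, the genes moved in both directions. In SOX17+ against T+, 3 were higher (Lin28a, Trim71 and Hmga1), 3 lower (Hmga2, Igf2bp2 and Igf2bp3) and 2 not called, where 54.5% of all tested genes were called, 25.4% higher and 29% lower. Only Lin28a differed by at least 2-fold there, as did 8.65% of all genes. In SOX17+/T+ against T+, Lin28a and Trim71 were higher, Hmga2 and Igf2bp3 lower and 4 not called, where 28.4% of all genes were called, 12.6% higher and 15.8% lower. In SOX17+ against SOX17+/T+, the same 4 genes were called in the same directions, where 36.6% of all genes were called, 19.8% higher and 16.8% lower. After quantile normalization 2, 2 and 1 of the 8 were higher and 3 lower in each of these comparisons, in the order given. None of the 8 reached 2-fold in these last comparisons, as 2.5% and 2.71% of all genes did. In 4 of the 8 genes the sorted libraries fell into 3 blocks without overlap and with SOX17+/T+ in the middle. This held for Lin28a and Trim71 with SOX17+ at the top and for Hmga2 and Igf2bp3 with T+ at the top, and for 21.2% of all tested genes, 10.4% with SOX17+ and 10.7% with T+ at the top. Setting the T+ mean of log2(TPM + 1) to 0 and the SOX17+ mean to 1, SOX17+/T+ lay at 0.58 for Lin28a, 0.60 for Trim71, 0.64 for Hmga2 and 0.76 for Igf2bp3. For the other genes called between SOX17+ and T+ it lay at 0.65 for Igf2bp2 and 0.15 for Hmga1. The Hmga1 position divides by a SOX17+ to T+ difference of only 0.06 ± 0.02, so it is poorly fixed. That call was lost after quantile normalization and in 9 of 12 fits that left out a library.

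Likeness of pattern was measured as Pearson's r of log2(TPM + 1) over the 12 libraries, which share 4 group means, so that genes with a large step between mESC and sorted cells correlate readily. Lin28b, Hmga2, Igf2bp2 and Igf2bp3 correlated with one another at 0.97 to 0.99, and Trim71 and Igf2bp1 with each other at 0.94. Hmga1 correlated with Lin28b, Hmga2, Igf2bp2 and Igf2bp3 at 0.90 to 0.96. Lin28a stood apart, with r between -0.27 and 0.53 to the other members. Among 9220 genes with a mean of at least 10 TPM in some group, the 3 genes most like Lin28a were Afap1l1, Grb7 and Kdf1, each at r = 0.99, the last of these a gene of epidermal development. Grb7, an SH2 adaptor of receptor tyrosine kinases, averaged 71 TPM in SOX17+, 39 TPM in SOX17+/T+, 19.9 TPM in T+ and 25.4 TPM in mESC. Those most like Trim71 were Oxsr1, Jup (plakoglobin) and Prune1, and those most like Hmga2 were Cachd1, Ahcyl1 and Fzd2, a WNT receptor. Zfp282, Galc and Wdr90 were most like Lin28b, Snx6, Setd7 and Fbxl14 most like Hmga1, and Bend3, Dctn2 and U2af2 most like Igf2bp1. Zkscan8, Cpsf3 and Zfp521 were most like Igf2bp2, and Zfp362, Got2 and Nek9 most like Igf2bp3.

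Of 19 listed genes of microRNA processing and let-7 decay, 18 were tested. In SOX17+ against mESC 5 were higher, 10 lower and 3 not called, in SOX17+/T+ 6 were higher and 8 lower, and in T+ 5 were higher and 10 lower, where 85.4%, 85.2% and 84% of all genes were called, with medians of -0.34, -0.19 and -0.20 beside -0.18, -0.19 and -0.17 for all genes. In SOX17+ against T+ 1 was higher, 8 were lower and 9 not called, where 54.5% of all genes were called, 25.4% higher and 29% lower, with a median of -0.12 beside -0.03. After quantile normalization 7, 7 and 8 were higher and 8, 5 and 4 lower in SOX17+, SOX17+/T+ and T+ against mESC. That balance of directions thus depends on scaling. In SOX17+ against T+ the same normalization gave 1 higher and 9 lower. Dis3l2, the exonuclease that degrades uridylated pre-let-7, had 27.8 to 31.1 TPM in SOX17+, 28.6 to 32.6 TPM in SOX17+/T+, 28.4 to 31.3 TPM in T+ and 10.1 to 10.9 TPM in mESC, and rose by 1.41 ± 0.06, 1.46 ± 0.06 and 1.44 ± 0.06. The Dicer partners moved in opposite directions. Prkra (PACT) rose by 2.10 ± 0.06, 2.12 ± 0.06 and 2.13 ± 0.06 in SOX17+, SOX17+/T+ and T+, and Tarbp2 (TRBP) fell by 1.69 ± 0.06, 1.85 ± 0.06 and 1.81 ± 0.06. Tarbp2 averaged 37, 33 and 33.9 TPM in SOX17+, SOX17+/T+ and T+ and 121 TPM in mESC, and Prkra 52, 52.8 and 53.2 TPM and 11.3 TPM. Dgcr8, the RNA-binding partner of Drosha, fell by 1.29 ± 0.09, 1.40 ± 0.09 and 1.16 ± 0.09 (adjusted p at or below 6.66e-08 in limma for each of these genes and comparisons). Tut4, chosen after its values were seen as the LIN28 partner that uridylates pre-let-7, rose by 0.69, 0.76 and 0.90. Its relative Tut7 gave 0.09, 0.03 and 0.00, none called.

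**Figure D4:**
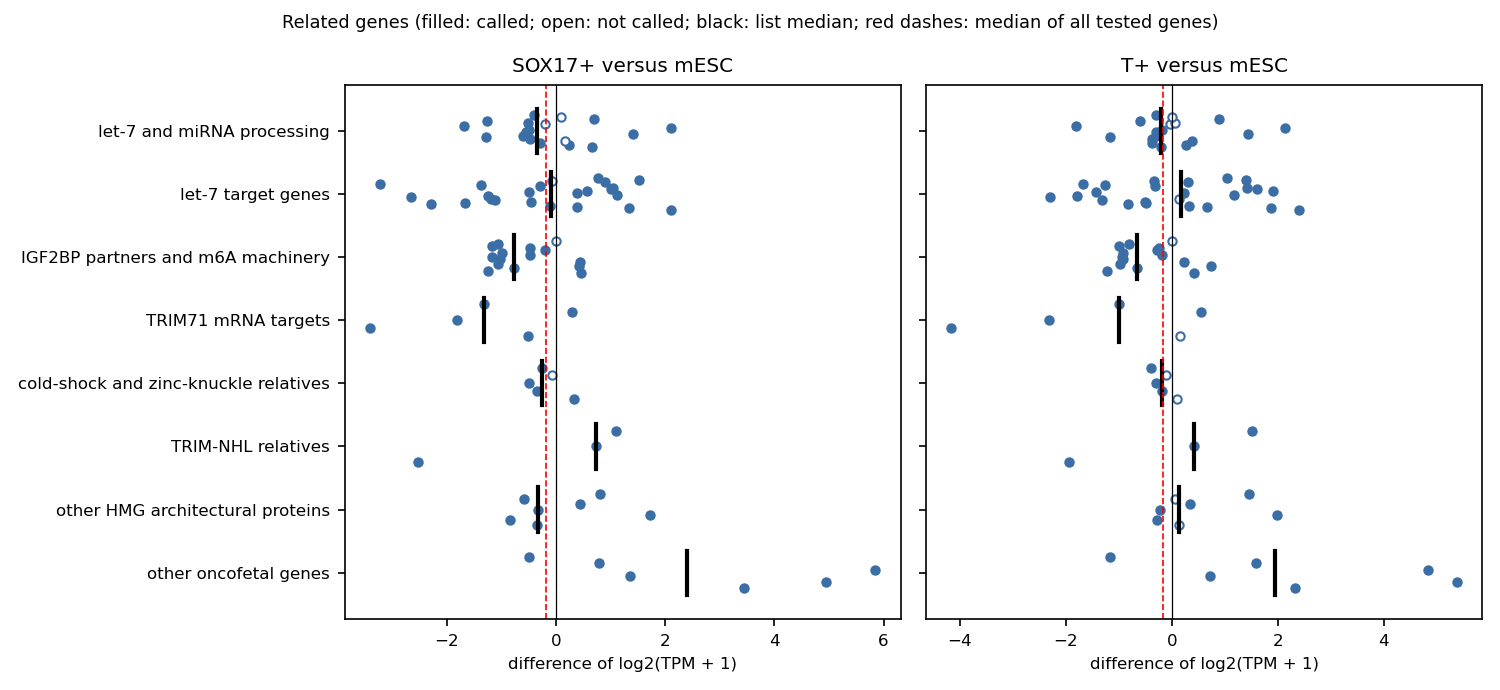
Difference of log2(TPM + 1) from mESC (horizontal axis) in SOX17+ (left) and T+ (right) for each tested gene of 8 lists of related genes; each point is a gene, filled when called at an adjusted p under 0.05, with the list median in black and the median of all tested genes as red dashes. The other oncofetal genes lie furthest to the right, with medians of 2.40 and 1.95, and the TRIM71 targets furthest to the left, with medians of -1.32 and -0.99.

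Known let-7 targets outside the 8 genes did not move as 1 group. Of 25 listed, 24 were tested. In SOX17+ against mESC 11 were higher and 12 lower, in SOX17+/T+ 11 were higher and 10 lower, and in T+ 12 were higher and 11 lower, with medians of -0.09, -0.02 and 0.18 beside -0.18, -0.19 and -0.17 for all genes, of which 35.4%, 34.9% and 34.5% were higher and 50%, 50.3% and 49.5% lower. After quantile normalization 13 were higher in each and 10, 9 and 9 lower, with medians of 0.21, 0.32 and 0.36. In SOX17+ against T+, 6 were higher and 13 lower, where 25.4% of all genes were higher and 29% lower, with a median of -0.28 beside -0.03 for all genes. Mycn, a MYC-family transcription factor, had 14.5 to 18.9 TPM in SOX17+, 31.4 to 37.1 TPM in SOX17+/T+, 44.6 to 52.3 TPM in T+ and 151 to 162 TPM in mESC. Ccnd1 (cyclin D1) had 39.7 to 43 TPM in SOX17+, 77.7 to 89.2 TPM in SOX17+/T+, 111 to 117 TPM in T+ and 199 to 208 TPM in mESC. Both ran in the opposite order to Lin28a among sorted groups, with log2 differences in SOX17+ against T+ of -1.55 ± 0.09 for Mycn and -1.46 ± 0.05 for Ccnd1 (adjusted p = 2.37e-08 and 7.92e-11). Other listed targets ran in the same order as Lin28a, Hras and Nr6a1 among them, chosen for naming after their values were seen. In SOX17+, SOX17+/T+ and T+, Hras averaged 55.3, 39.2 and 28.2 TPM and Nr6a1 59.8, 49.5 and 39.5 TPM. The phosphatase gene Dusp1 fell by 2.65 ± 0.08, 2.34 ± 0.08 and 2.30 ± 0.08 in SOX17+, SOX17+/T+ and T+ against mESC, and Arid3a, an ARID-domain transcription factor, rose by 2.11 ± 0.06, 2.33 ± 0.06 and 2.40 ± 0.06 (adjusted p at or below 8.47e-12 in limma).

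Of 15 genes of IGF2BP partners and the m6A machinery, all tested, 3 were higher and 11 lower in each sorted group against mESC. Among all genes 35.4%, 34.9% and 34.5% were higher and 50%, 50.3% and 49.5% lower in SOX17+, SOX17+/T+ and T+. The list medians were -0.77, -0.74 and -0.65, beside -0.18, -0.19 and -0.17 for all genes, and after quantile normalization 4 were higher in each and 11, 9 and 9 lower. The helicase gene Dhx9 fell by 1.25 ± 0.10, 1.40 ± 0.10 and 1.22 ± 0.10, and Syncrip, which binds RNA together with IGF2BP1, by 1.17, 0.96 and 0.94. The m6A methyltransferase gene Mettl3 fell by 1.02 ± 0.08, 1.20 ± 0.08 and 0.93 ± 0.08 and the m6A reader gene Ythdf1 by 1.18, 1.11 and 1.00. The genes that were higher were Mettl14 and the demethylases Fto and Alkbh5, chosen for naming after their values were seen, at 0.43, 0.42 and 0.45 in SOX17+.

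Of 5 messengers known as TRIM71 targets, 1 was higher and 4 lower in SOX17+ against mESC, 1 higher and 3 lower in SOX17+/T+ and in T+, where 85.4%, 85.2% and 84% of all genes were called and 50%, 50.3% and 49.5% lower. After quantile normalization 1, 2 and 2 were higher and 4, 3 and 3 lower in SOX17+, SOX17+/T+ and T+. Egr1, an immediate early transcription factor, had 7.8, 4.37 and 8.35 TPM in SOX17+, 4.9, 3.68 and 4.49 TPM in SOX17+/T+, 4.13, 3.12 and 3.37 TPM in T+, and 76.5, 90.3 and 73.1 TPM in mESC. The splicing regulator gene Mbnl1 fell by 1.82, 2.28 and 2.32 and the pocket protein gene Rbl2 by 1.32, 1.19 and 0.99 in SOX17+, SOX17+/T+ and T+, while Rbl1 rose by 0.30, 0.44 and 0.56. Cdkn1a (p21) was lower in SOX17+ alone, with 99.6 to 123 TPM in SOX17+, 165 to 180 TPM in SOX17+/T+, 171 to 180 TPM in T+ and 146 to 167 TPM in mESC, and a log2 difference of -0.67 ± 0.07 in SOX17+ against T+ (adjusted p = 4.75e-06).

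Relatives of the 8 proteins gave mixed patterns. Among TRIM-NHL genes, Trim2 fell by 2.53, 2.36 and 1.95 in SOX17+, SOX17+/T+ and T+ against mESC, Trim3 rose by 0.74, 0.48 and 0.42, and Trim32 rose by 1.09, 1.24 and 1.51. Among 7 other HMG proteins, Hmgb3 rose by 1.73, 1.70 and 2.00 and Hmgn5 by 0.80, 0.93 and 1.46, as did Hmgn2 by 0.44, 0.26 and 0.34. Hmgb2 fell by 0.83, 0.54 and 0.28. Hmgb1, Hmgn1 and Hmgn3 gave -0.34, -0.33 and -0.59 in SOX17+, and in all, 4, 4 and 2 of the 7 were lower in SOX17+, SOX17+/T+ and T+, against 3, 3 and 0 after quantile normalization, with 3 higher in each, against 3, 4 and 4. Without that normalization, 50%, 50.3% and 49.5% of all genes were lower and 35.4%, 34.9% and 34.5% higher in the same comparisons. In SOX17+ against T+, 6 of the 7 were lower and none higher, where 29% of all genes were lower and 25.4% higher, with a median of -0.47 beside -0.03 for all genes. Among cold-shock and zinc-knuckle relatives of LIN28, Cnbp and Ybx3 were lower in SOX17+ against mESC, by -0.34 and -0.25, Carhsp1 was higher by 0.34, and Ybx2 gave -0.07, which was not called. Csdc2 did not pass the filter and reached at most 1.07 TPM.

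Of 7 other oncofetal genes, 6 were tested, and in each sorted group 5 were higher than in mESC and 1 was lower, where 35.4%, 34.9% and 34.5% of all genes were higher in SOX17+, SOX17+/T+ and T+. Igf2, the growth factor whose messenger IGF2BP proteins bind, had 1454, 1508 and 1563 TPM in SOX17+, 835, 919 and 876 TPM in SOX17+/T+, 697, 770 and 780 TPM in T+, and 23.3, 26.2 and 26 TPM in mESC. It rose against mESC by 5.85 ± 0.05, 5.07 ± 0.05 and 4.84 ± 0.05 in SOX17+, SOX17+/T+ and T+, and SOX17+ exceeded T+ by 1.01 ± 0.05 (adjusted p = 5.48e-09). Gpc3, a cell-surface proteoglycan gene, rose by 4.94 ± 0.03, 4.95 ± 0.03 and 5.38 ± 0.03, and Dlk1, an imprinted NOTCH-family ligand gene, by 3.45 ± 0.11, 2.32 ± 0.11 and 2.32 ± 0.11. H19, the imprinted noncoding RNA next to Igf2, rose by 1.36, 0.62 and 0.72, and the transcription factor gene Plag1 by 0.78, 1.35 and 1.59. Sall4, a zinc-finger gene of pluripotent and fetal cells, fell by 0.49, 0.73 and 1.16. Like Lin28a and Trim71, Sall4 was highest in SOX17+ among sorted cells, at 0.66 ± 0.05 over T+ (adjusted p = 1.42e-07). The rises of Igf2 and Gpc3 exceeded those of all 8 members in each sorted group. Afp, the oncofetal protein of yolk sac and liver, did not pass the filter, at 0.343 to 0.592 TPM in SOX17+ and at most 0.109 TPM in any other library.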

How the data were processed

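The authors deposited TPM values, 1 column per library, made with cutadapt, STAR and StringTie on mm10 (GRCm38) per the submitters' processing notes, which give no versions and no annotation release. TPM keeps no depth and no counts were used, so no count test was run. Of 54480 rows, 282 empty cells were set to 0 and rows were summed per gene identifier. Genes with at least 1 TPM in at least 3 of 12 libraries were kept (16097), transformed as log2(TPM + 1) and fitted with limma 3.58.1 in R 4.3.3, with a mean for each group and 8 residual degrees of freedom (eBayes, trend and robust). The 6 group contrasts were adjusted by Benjamini-Hochberg over all tested genes. The script was tested on simulated data. Of the table's identifiers, 53229 match GENCODE M21, the source of the UTRs; copies of at least 95% identity were sought with blastn 2.17.0. Mature and hairpin microRNAs are RefSeq's.

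The 8 members and all lists were chosen with earlier results of these data known, so list counts are no independent evidence. From each list up to 4 called genes with the largest change are named, every gene of lists of 7 or fewer, and the 3 genes most like each member; 1 listed gene is not reported here. After group means were removed, same-number SOX17+/T+ and T+ libraries correlated at r = 0.204, 0.149 and 0.242, a hint of pairing from the data. In SOX17+ against SOX17+/T+ these values were 0.0463, 0.178 and 0.224, the first below its 0.0849 with another number. Same-number values also exceeded the others in SOX17+/T+ and in T+ against mESC, at no more than 0.0754. In SOX17+ against mESC and against T+, not every same-number value did. Alternatives were a pseudocount of 0.1, no filter, median-of-ratios and quantile scaling, a replicate block, the compared groups alone, and leaving out each library; the sum of Hmga1 and Hmga1b was added after the data were seen.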

Additional observations from a re-analysis of the deposited data

Results flagged for a closer look

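Lin28a differed in its response between sorted groups. Against mESC it was higher in SOX17+ and SOX17+/T+ and lower in T+, and the tested difference between the groups was 1.17 on the log2 scale in SOX17+ against T+ and 0.68 in SOX17+/T+ against T+ (limma, adjusted p = 3.26e-08 and 1.68e-05, with every library of the higher group above every T+ library). The opposite signs rest on the T+ difference from mESC of -0.20, which became 0.17 after quantile normalization. With 3 libraries in each group, single libraries were not tested for standing apart.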

How the results depend on the processing

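Of 870 fold changes recomputed for the 8 genes, 812 kept their sign and their side of the threshold and 9 changed sign. Quantile normalization turned Lin28a in T+ against mESC to 0.17 (it was also not called without T+ replicate 3, mESC replicate 1 or mESC replicate 3, adjusted p = 0.0834, 0.0526 and 0.0529) and Hmga1 in SOX17+ against SOX17+/T+ to -0.0102. The other changes of sign came from leaving out a library, in differences that were not called: Lin28b in SOX17+ against SOX17+/T+ (range -0.0747 to 0.0347), and Igf2bp1 (-0.0223 to 0.0504) and Hmga1 (-0.0157 to 0.0227) in SOX17+/T+ against T+. In SOX17+ against SOX17+/T+, 2 of the 8 genes were called, in place of 4, without a filter and with the compared groups alone, since Trim71 and Igf2bp3 were lost. Leaving out each library gave 8 called genes of the 8 in SOX17+ and in SOX17+/T+ against mESC, 7 to 8 in T+ against mESC, 5 to 6 in SOX17+ against T+, 4 to 5 in SOX17+/T+ against T+ and 2 to 4 in SOX17+ against SOX17+/T+. Over all genes the same fits called 13374 to 13776, 13330 to 13767, 13150 to 13601, 8030 to 8854, 3653 to 4739 and 5155 to 5818, in that order. A replicate block called 8, 8, 8, 8, 4 and 5 of the 8 genes in that order. It added Lin28b (-0.14, adjusted p = 0.0368 in limma) and Igf2bp1 (0.12, 0.0232) in SOX17+ against T+. It also added Igf2bp1 (0.12, 0.0366) in SOX17+ against SOX17+/T+. In SOX17+/T+ against T+, where the numbers hint at a pairing of libraries, it changed no call of the 8 genes. Summing Hmga1 and Hmga1b changed no call. The cause of these changes was not tested. TPM gives no depth, so counting error could not be set beside any value.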
